A study of Mus musculus with 27 samples.

Results

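The genes described here are C130079G13Rik, Gm13178, Sdr16c5, Cds1, Entpd5, Echdc1, Mgll, Acot1 and Acot2, which are 9 of the 54532 genes in the deposited count table of mouse dorsal skin. They were picked by symbol as a set of enzyme genes with less RNA after TDM10842, a thyroid hormone receptor agonist, so their own differences between treated and control skin are given as descriptions without a test. The skin came from C3H mice, and RNA sequencing covered 3 groups of 9 libraries. Blank skin was untreated. Vehicle skin received the solvent of TDM10842. TDM skin received TDM10842. Both treated groups had 60 µL at 0 h and again at 24 h. The labels give no age, sex or concentration for any group, and they do not say whether the libraries came from separate mice, so a p-value reflects variation among libraries, which may be technical.

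Count totals lay between 15412332 and 17599066 per library. Of the 54532 genes, 17232 passed the filter on low counts, and all 9 enzyme genes were among them, with 69 to 20027 reads in a library. Vehicle replicates 3, 7 and 8 stood apart from the rest of their group in earlier results of these data. For several results named here that change without them, the change is given. The skin keratin gene Krt14 averaged 2116 CPM (counts scaled to the library total), and the tissue is labelled dorsal skin, although a protocol text speaks of retinas. Levels below are CPM after scaling by the trimmed mean of M-values (TMM).

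Thyroid hormone receptors are nuclear receptors that bind DNA at copies of the hexamer AGGTCA, commonly as a pair with the retinoid X receptor, and that raise or lower transcription depending on the gene and ligand. In skin, much of the lipid is made by sebocytes, the cells of the sebaceous gland, which fill with neutral lipid and release it by breaking down, and by keratinocytes that lay down the barrier lipids. Enzymes of lipid handling act on a few shared intermediates: fatty acids bound to coenzyme A, monoacylglycerols, phosphatidic acid and esters of retinol. Acyl-CoA thioesterases free the fatty acid from coenzyme A, lipases free it from glycerol, and CDP-diacylglycerol synthases commit phosphatidic acid to phosphatidylinositol and cardiolipin.

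The promoters of C130079G13Rik, Acot1 and Acot2 are printed because the first had the largest difference of the 9 genes, and the other pair are neighbours of nearly identical sequence whose differences were unlike. Each window runs from 250 bases before to 50 bases after the RefSeq start on GRCm38.p6, 5′ to 3′. They lie at chr3:59924964-59925263, chr12:84009252-84009551 and chr12:83987611-83987910, in that order, all on the plus strand. Capitals mark the hexamer AGGTCA, read here as TGACCT because the match lay on the minus strand.
C130079G13Rik: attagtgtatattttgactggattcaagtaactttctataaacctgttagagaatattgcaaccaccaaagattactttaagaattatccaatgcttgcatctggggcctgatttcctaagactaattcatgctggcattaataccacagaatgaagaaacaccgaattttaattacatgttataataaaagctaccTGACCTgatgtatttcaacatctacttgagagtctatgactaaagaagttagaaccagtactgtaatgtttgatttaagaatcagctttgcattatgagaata
Acot1: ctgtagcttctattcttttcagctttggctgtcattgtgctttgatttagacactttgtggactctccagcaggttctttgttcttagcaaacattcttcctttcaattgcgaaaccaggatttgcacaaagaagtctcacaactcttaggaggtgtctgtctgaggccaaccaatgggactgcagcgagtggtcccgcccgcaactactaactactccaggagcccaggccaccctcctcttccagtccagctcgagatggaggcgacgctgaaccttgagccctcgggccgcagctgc
Acot2: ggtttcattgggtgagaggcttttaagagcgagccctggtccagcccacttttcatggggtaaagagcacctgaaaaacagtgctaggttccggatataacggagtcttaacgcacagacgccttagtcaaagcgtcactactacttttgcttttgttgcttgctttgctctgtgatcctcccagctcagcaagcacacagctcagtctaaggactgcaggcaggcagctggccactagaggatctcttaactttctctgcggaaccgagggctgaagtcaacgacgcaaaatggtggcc

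The hexamer AGGTCA, searched on both strands, was present in the C130079G13Rik window, where it began 53 bases before the start. The table held promoters of 8 of the 9 genes, in 10 windows, and the other 9 windows held no match. Sdr16c5 was not among them. For comparison, 16.255% of all 32851 promoter windows of the same length held the hexamer. Repeats of it spaced by any 4 bases (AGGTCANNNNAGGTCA) occurred in 0.015% of windows and by 1 base (AGGTCANAGGTCA) in 0.04%, and in none of the 10. A match is a description of the letters and does not show binding. The Acot1 and Acot2 windows had 52.0% and 51.3% G and C and aligned over only 17 bases, whereas their transcripts had 94.29% identity over 1330 aligned bases.

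In TDM skin 8 of the 9 genes had less RNA in every library than in any Vehicle library, and 7 of the 9 had less than in any library of either control group. Over all tested genes, 0.313% lay below every Vehicle library, the same share below every Blank library and 0.0929% below every library of both groups, and since these differences chose the genes, nothing is read from the counts. The difference was 11.3-fold for C130079G13Rik and 1.62-fold for Entpd5 at the ends of the 8. Acot2 goes against the label of a lowered enzyme: its TDM and Vehicle ranges overlapped almost fully. In whole skin, fewer cells of a type and less RNA per cell cannot be told apart.

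**Figure D1:**
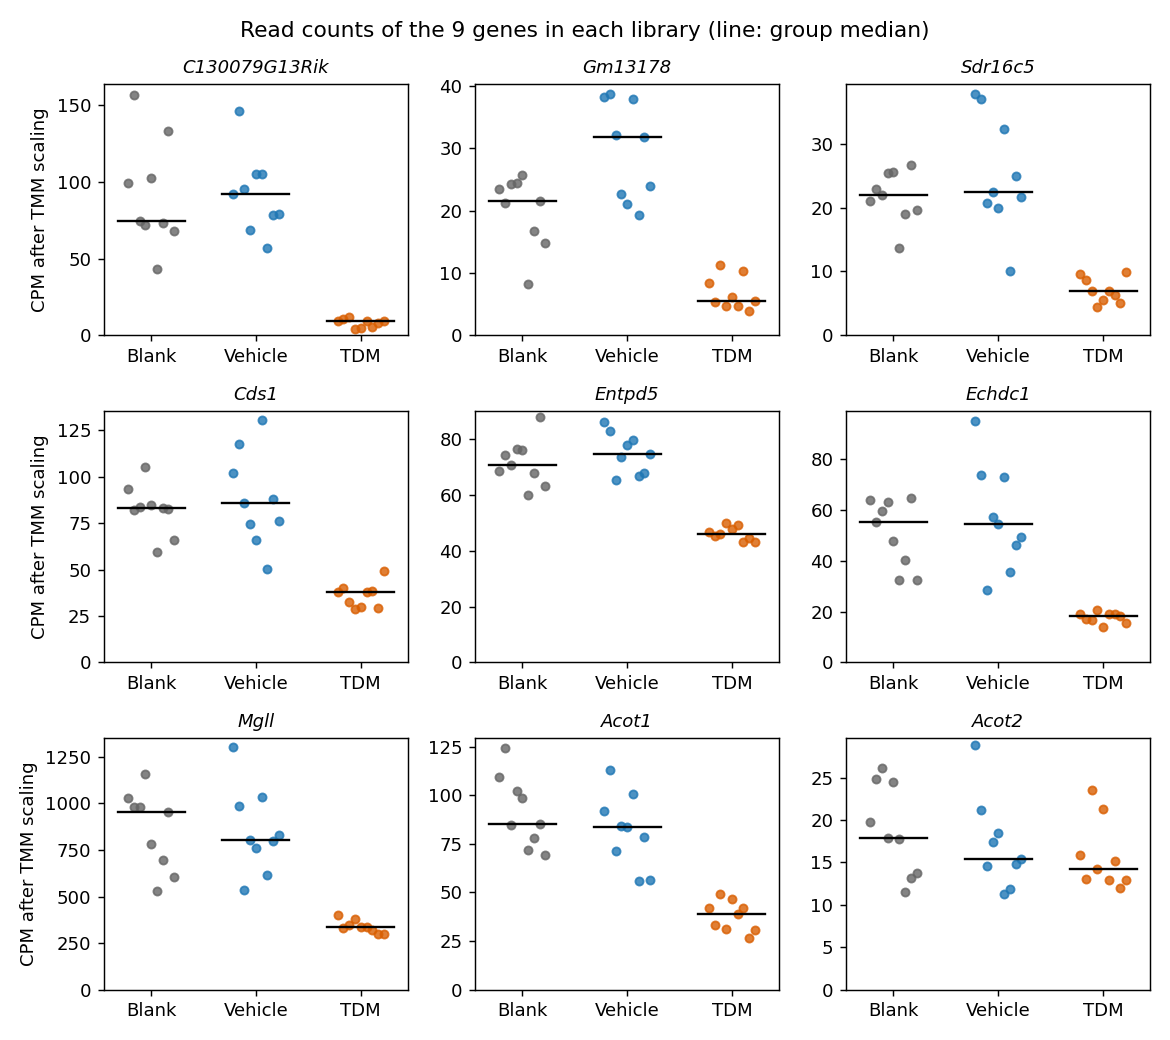
Level of each of the 9 genes in every library, as CPM after TMM scaling on axes that start at 0, with 9 libraries per group and a line at the group median. The TDM points lie below all Vehicle points in 8 panels, and in the Acot2 panel the 3 groups overlap.

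C130079G13Rik (ENSMUSG00000036951, chr3:59925214-59937949, plus strand, GRCm38) carries the RefSeq symbol Aadacl2fm1, a member of the arylacetamide deacetylase family of membrane-bound esterases. Its own substrate is not described here. It ranged from 43.0 to 156 CPM in Blank skin (median 74.3), from 56.6 to 146 CPM in Vehicle skin (median 92.3) and from 4.05 to 11.98 CPM in TDM skin (median 9.15). No TDM library came near either control group, and the lowest control library stood well above the highest TDM library. Log2 fold changes were -3.50 ± 0.24 (SE, 9 libraries per group) against Vehicle and -3.49 ± 0.24 against Blank. The control groups spread widely, with coefficients of variation of 38.8% in Blank and 28.3% in Vehicle skin, and the difference from TDM exceeded that spread.

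Gm13178 (ENSMUSG00000041735, chr4:144703191-144721404, minus strand) has the RefSeq symbol AAdacl4fm3 and belongs to the same esterase family. It held 8.28 to 25.7 CPM in Blank skin (median 21.5), 19.2 to 38.6 CPM in Vehicle skin (median 31.7) and 3.91 to 11.3 CPM in TDM skin (median 5.47). TDM libraries lay below all Vehicle libraries, but only 6 of 9 lay below the lowest Blank library, which was replicate 6. On the log2 scale the difference was -2.14 ± 0.22 against Vehicle and -1.58 ± 0.22 against Blank. The Vehicle median of Gm13178 was above the highest Blank library.

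Sdr16c5 (ENSMUSG00000028236, chr4:3995936-4019663, minus strand) encodes an epidermal short-chain dehydrogenase that oxidises retinol to retinaldehyde, the step before retinoic acid. It held 13.7 to 26.6 CPM in Blank skin (median 22), 10.02 to 37.8 CPM in Vehicle skin (median 22.4) and 4.51 to 9.96 CPM in TDM skin (median 6.89). The groups did not overlap, but the lowest Vehicle library, replicate 7, was only just above the highest TDM library. The log2 fold change was -1.84 ± 0.20 against Vehicle and -1.63 ± 0.20 against Blank, and without Vehicle replicates 7 and 8 the former was -1.96.

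Cds1 (ENSMUSG00000029330, chr5:101765130-101823858, plus strand) encodes a CDP-diacylglycerol synthase of the endoplasmic reticulum, which activates phosphatidic acid for phosphatidylinositol synthesis. It held 59.4 to 105 CPM in Blank skin (median 83.4), 50.2 to 130 CPM in Vehicle skin (median 86.1) and 28.9 to 49.1 CPM in TDM skin (median 37.9). The groups did not overlap, again with Vehicle replicate 7 next to the highest TDM library. Cds1 thus had log2 fold changes of -1.29 ± 0.15 against Vehicle and -1.19 ± 0.15 against Blank.

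Mgll (ENSMUSG00000033174, chr6:88724412-88828360, plus strand) encodes monoacylglycerol lipase, which takes the last fatty acid off glycerol and also breaks down the endocannabinoid arachidonoylglycerol. It was the most abundant of the 9 genes also per gene length, with median FPKM (fragments scaled by gene length and library depth) of 185 in Blank, 156 in Vehicle and 64.6 in TDM skin, where the other 8 had medians of at most 33.0. It held 528 to 1156 CPM in Blank skin (median 956), 537 to 1301 CPM in Vehicle skin (median 802) and 298 to 399 CPM in TDM skin (median 336). The TDM libraries lay close together and below all controls, with a coefficient of variation of 9.99% against 26.98% in Vehicle skin. Its log2 fold change was -1.33 ± 0.15 against Vehicle and -1.34 ± 0.15 against Blank.

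Echdc1 (ENSMUSG00000019883, chr10:29313166-29347469, plus strand) encodes ethylmalonyl-CoA decarboxylase, which removes a faulty side product of acetyl-CoA carboxylase. It held 32.5 to 64.5 CPM in Blank skin (median 55.2), 28.4 to 94.7 CPM in Vehicle skin (median 54.3) and 13.9 to 20.6 CPM in TDM skin (median 18.1). As with Mgll, the treated libraries were tightly grouped and stood below every control library. The log2 fold change was -1.69 ± 0.18 against Vehicle and -1.53 ± 0.18 against Blank. Of the 50-base stretches of its transcripts, 82.79% also occur in another gene, mostly in Rnf146 (75.38%), which overlaps it on the opposite strand at chr10:29344176-29362442. The counting is not stated to use strand, so reads there could not be assigned with certainty. Rnf146 itself had medians of 14.9, 13.6 and 13.9 CPM in Blank, Vehicle and TDM skin and was not called (difference from Vehicle 0.01 on the log2 scale, edgeR adjusted p = 0.924). It was looked at after the sequence comparison.

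Entpd5 (ENSMUSG00000021236, chr12:84373857-84409029, minus strand) encodes a nucleoside diphosphatase of the endoplasmic reticulum that turns UDP into UMP during glycoprotein folding. It held 60.0 to 87.9 CPM in Blank skin (median 70.6), 65.3 to 86.3 CPM in Vehicle skin (median 74.8) and 43.2 to 50.02 CPM in TDM skin (median 46.2). The difference was the smallest of the 8, yet no TDM library reached the lowest control. As log2 fold changes this was -0.70 ± 0.07 against Vehicle and -0.63 ± 0.07 against Blank. Entpd5 was also the least variable of the 9 within groups, with coefficients of variation of 11.6% in Blank, 9.85% in Vehicle and 5.21% in TDM skin.

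Acot1 (ENSMUSG00000072949, chr12:84009490-84018371, plus strand) encodes a cytosolic acyl-CoA thioesterase. It held 69.4 to 124 CPM in Blank skin (median 84.9), 55.9 to 113 CPM in Vehicle skin (median 83.6) and 26.3 to 49.3 CPM in TDM skin (median 38.8). TDM and control libraries did not overlap. Acot1 had a log2 fold change of -1.11 ± 0.14 against Vehicle and -1.27 ± 0.14 against Blank.

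Acot2 (ENSMUSG00000021226, chr12:83987861-83993873, plus strand) encodes the mitochondrial counterpart of Acot1 and ends 15616 bases before Acot1 begins. It held 11.5 to 26.2 CPM in Blank skin (median 17.8), 11.3 to 28.8 CPM in Vehicle skin (median 15.4) and 12.02 to 23.6 CPM in TDM skin (median 14.2). The 3 groups overlapped, and 0 of 9 TDM libraries lay below the lowest library of either control group. The log2 fold change was -0.13 ± 0.18 against Vehicle and -0.26 ± 0.18 against Blank, and the former was 0.21 once a skeletal muscle score was added to the model.

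The ratio of Acot1 to Acot2 reads within a library was 3.24 to 6.79 in Blank skin (median 5.04), 3.19 to 8.91 in Vehicle skin (median 4.83) and 2.09 to 3.005 in TDM skin (median 2.40). The ratio of every TDM library was thus below that of every control library. Of the 50-base stretches of Acot2 transcripts, 24.55% also occur in Acot1, and of those of Acot1, 13.56% occur in Acot2. Reads in these stretches may have been assigned to either gene, so both levels are uncertain to that extent.

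Of the remaining genes, no 50-base stretch of Gm13178, Sdr16c5, Cds1 or Entpd5 occurred in another annotated gene. For C130079G13Rik 8.83% of stretches also occurred in Gm9696, whose level was 2.02 ± 1.16 CPM in Vehicle skin (SD, n = 9) and 0.770 ± 0.465 CPM in TDM skin. For Mgll the share was 1.36%, in Gm26588, which overlaps it on the opposite strand. Both partners were far less abundant than the enzyme gene they share sequence with. Both were themselves called lower in TDM than in Vehicle skin, at -1.39 for Gm9696 and -1.03 for Gm26588 (edgeR adjusted p = 0.0057 and 0.0252).

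**Figure D2:**
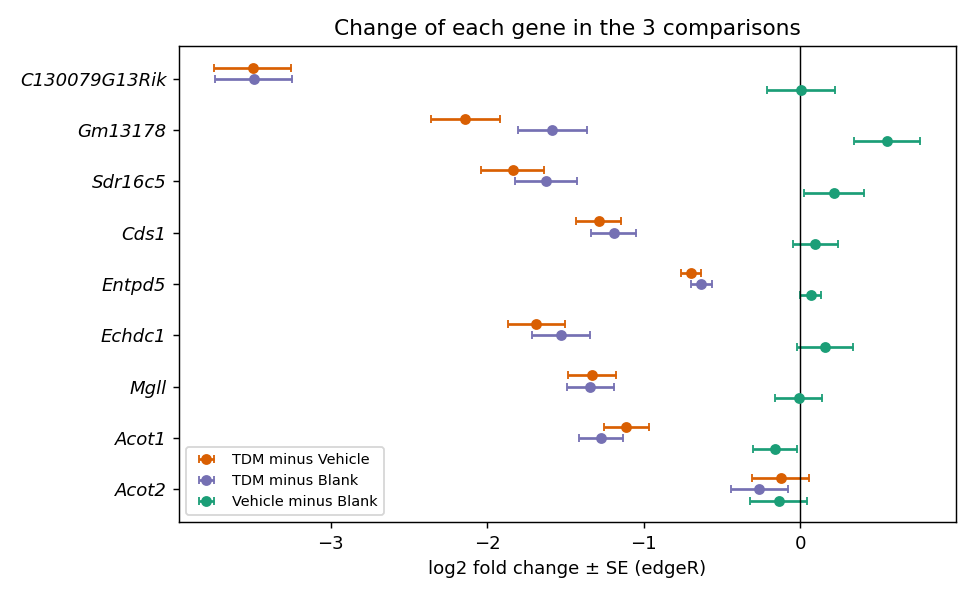
Log2 fold change of each of the 9 genes with its standard error from edgeR, for TDM minus Vehicle, TDM minus Blank and Vehicle minus Blank. Both differences from TDM skin lie left of 0 for 8 genes, between -3.50 and -0.63, and those between Vehicle and Blank skin lie near 0 except for Gm13178 at 0.56.

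The solvent alone was compared with no treatment, a contrast that did not choose the genes but shares its libraries with those that did. None of the 9 genes passed the test in Vehicle against Blank skin (0 of 9 by edgeR's quasi-likelihood test with Benjamini-Hochberg adjustment, 0 by DESeq2 and 0 by limma voom), while 2.76% of all tested genes did, 1.86% lower and 0.894% higher in Vehicle skin. The share over all genes rests on 475 calls and was 0 calls with the muscle score in the model or without Vehicle replicates 3, 7 and 8, and 1437 with DESeq2. At an unadjusted p under 0.05 the count was 1 of 9, beside 4468 of 17232 tested genes. That gene was Gm13178, which was 0.56 ± 0.21 higher on the log2 scale in Vehicle skin (interval 0.13 to 0.98, adjusted p = 0.109). For Mgll the log2 difference was -0.01 ± 0.15 (interval -0.31 to 0.29, adjusted p = 0.974) and for C130079G13Rik 0.01 ± 0.22 (interval -0.43 to 0.44, adjusted p = 0.988). The narrowest interval was that of Entpd5, from -0.07 to 0.20 around 0.07. Adjusted p-values of the other 5 lay between 0.459 for Acot1 and 0.688 for Cds1.

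Within groups the 9 genes varied together from library to library. After removing group means from log2 CPM, Pearson's r over the 27 libraries was above 0 for 36 of 36 pairs, with a median of 0.53. These values are descriptions, since the points share libraries, scaling and cell makeup. The closest pair was Echdc1 and Mgll (r = 0.93), followed by Sdr16c5 and Cds1 (r = 0.88) and by Entpd5 with Echdc1 (r = 0.79). Acot2 stood farthest from the set, with r = 0.09 to Cds1 and 0.18 to C130079G13Rik. Acot1 followed Gm13178 (r = 0.71) more closely than it followed Acot2 (r = 0.60).

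**Figure D3:**
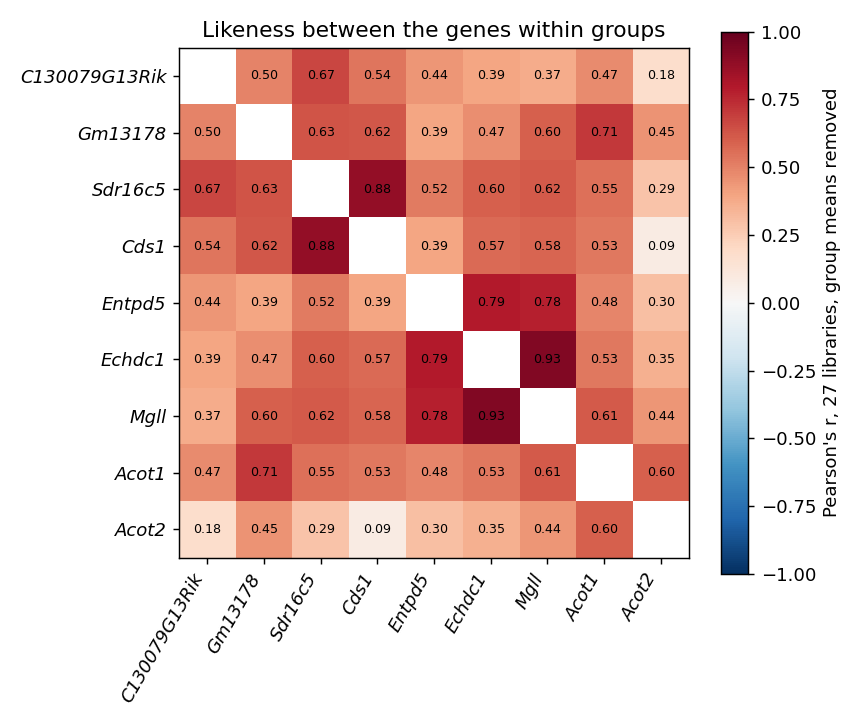
Pearson's r between each pair of the 9 genes over 27 libraries, computed on log2 CPM with group means removed, on a colour scale from -1 to 1. All 36 pairs are above 0, with the highest value for Echdc1 and Mgll (0.93) and the lowest for Cds1 and Acot2 (0.09).

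Some libraries were at the end of their group for several genes. Blank replicate 6 held the lowest Blank level of 7 of the 9 genes, Vehicle replicate 7 held the lowest Vehicle level of 5, and Vehicle replicate 1 the highest Vehicle level of 5. The overlap was also counted without Vehicle replicates 7 and 8, an alternative added after seeing the data. There 8 of the 9 genes lay below every remaining Vehicle library, beside 1.29% of all tested genes. That count of 8 could not fall, because leaving libraries out cannot lower the lowest Vehicle level, so nothing is read from it. In the same setting the log2 fold changes against Vehicle ran from -3.60 for C130079G13Rik to -0.74 for Entpd5 among those 8, with -0.21 for Acot2.

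The genes whose library-to-library pattern was most like the mean of the 9, with group means removed and over the 27 libraries, were Elovl4 (r = 0.92), Far2 (0.91), Ermp1 (0.90), Ugt1a1 (0.90), Pnpla5 (0.90), Acsl4 (0.89), Sdr42e1 (0.89), Gk (0.88), Rarres1 (0.87) and Tmem139 (0.87). Elovl4 makes very long fatty acids and Far2 makes the fatty alcohols of waxes. Their own log2 fold changes in TDM against Vehicle skin were smaller than those of most of the 9 enzyme genes, at -0.55 for Elovl4 (edgeR adjusted p = 0.0503) and -0.35 for Far2 (adjusted p = 0.199). Far2 was called without Vehicle replicates 7 and 8. The most negative of the 10 was that of Ugt1a1, a glucuronosyltransferase gene, at -1.25 (adjusted p = 0.000831). Ermp1, Pnpla5, Acsl4, Gk, Rarres1 and Tmem139 were also called lower, with edgeR adjusted p from 3.64e-05 for Acsl4 to 0.0346 for Rarres1. Sdr42e1 was not called (adjusted p = 0.0869). Over all tested genes 11.7% were called lower against Vehicle. Against Blank Elovl4 was called lower (edgeR adjusted p = 0.0301) and Far2 was not (0.118).

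Far2 is also among 12 sebocyte markers, and most of these varied with the enzyme genes within groups. Against Vehicle 6 of the 12 fell (Mc5r, Soat1, Elovl3, Scd3, Fa2h and Acsbg1), 1 rose (Awat2, adjusted p = 0.0919 without Vehicle replicates 7 and 8) and 5 did not pass, with a median log2 fold change of -0.60. Of those 5, Far2 was called without Vehicle replicates 7 and 8, and Far2 and Awat1 were called without replicates 3, 7 and 8. Krt79 and Pparg lay above 0, at 0.31 and 0.16. Mc5r, Elovl3 and Scd3 kept their call once a muscle score was added to the model. Against Blank 5 of the 12 fell. Over all tested genes 11.7% were called lower against Vehicle and 4.63% against Blank. The summed marker level was 1984 to 4035 CPM in Blank skin (median 3370), 1701 to 4317 CPM in Vehicle skin (median 2857) and 1493 to 2832 CPM in TDM skin (median 1896). No marker was near 0, the lowest being Mc5r at 5.87 CPM in TDM skin. Within groups the markers' r with the mean of the 9 genes ran from 0.05 for Pparg to 0.91 for Far2, with a median of 0.69 against 0.01 over all other tested genes. Basal keratinocyte markers had r from 0.47 to 0.73 (median 0.61).

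The same libraries that were low in the enzyme genes were low in the markers: Blank replicate 6 had the lowest sum of its group, 1984 CPM, and Vehicle replicate 7 had the lowest of its own, 1701 CPM. Both sums lay within the range of TDM skin. At those sums Mgll stood at 528 CPM in Blank replicate 6 and 616 CPM in Vehicle replicate 7, above the 399 CPM of the highest TDM library. C130079G13Rik stood at 43.0 and 56.6 CPM in the same libraries, against at most 11.98 CPM in TDM skin. Other genes were closer: Gm13178 in Blank replicate 6, at 8.28 CPM, lay within the TDM range, and Sdr16c5 (10.02 against 9.96 CPM) and Cds1 (50.2 against 49.1 CPM) in Vehicle replicate 7 nearly touched the highest TDM library. The part of sebocyte content in the differences of the 9 genes was not tested.

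**Figure D4:**
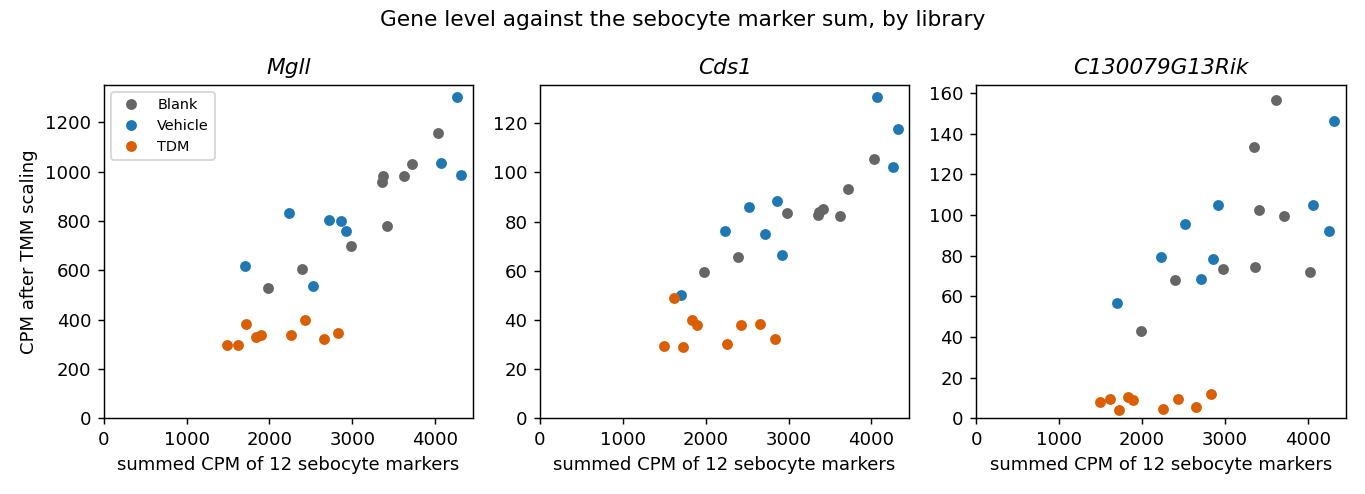
Level of Mgll, Cds1 and C130079G13Rik (CPM after TMM scaling) against the summed CPM of 12 sebocyte markers, 1 point per library. Among control libraries Mgll and Cds1 are mostly higher where the sum is higher, and C130079G13Rik follows the sum less regularly. TDM points stay low across sums from 1493 to 2832 CPM, and Vehicle replicate 7 lies next to a TDM library for Cds1.

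Skeletal muscle markers also differed, with 9 of 10 lower in TDM than in Vehicle skin and 1 of 10 lower than in Blank skin. Against Blank 8 of 10 had an unadjusted p under 0.05 (edgeR) and 3 passed by DESeq2, with a median log2 fold change of -0.54. Summed levels were 25968 to 60575 CPM in Blank skin, 23909 to 82300 CPM in Vehicle skin and 16848 to 42629 CPM in TDM skin. Once the muscle score was added to the model, log2 fold changes against Vehicle were -3.64 for C130079G13Rik, -1.87 for Gm13178, -1.27 for Mgll and -1.03 for Acot1. All 6 basal keratinocyte markers fell against Vehicle, and 0 of 6 passed against Blank (edgeR, with 1 at an unadjusted p under 0.05 and 0 by DESeq2). Of 8 adipocyte markers 0 passed in either comparison (edgeR and DESeq2, with 0 at an unadjusted p under 0.05 against Vehicle and 1 against Blank). Their summed level was 3535 to 8639 CPM in Blank, 320 to 7259 CPM in Vehicle and 3394 to 5465 CPM in TDM skin. With so wide a spread in Vehicle skin, equal adipocyte content is not shown. Markers of the hair matrix and inner root sheath, of the dermal papilla and of differentiated keratinocytes rose against Vehicle in 6 of 6, 6 of 6 and 3 of 6 cases, and against Blank in 5, 6 and 0 of 6. Over all tested genes 12% were called higher against Vehicle and 11.6% against Blank. Hair matrix markers were near 0 in controls, with means under 1 CPM for 4 of 6 in Blank and 3 of 6 in Vehicle skin. Their summed medians were 6.66 CPM in Blank, 7.51 CPM in Vehicle and 62.7 CPM in TDM skin. For differentiated keratinocytes the direction turned, with a median log2 fold change of 1.40 against Vehicle and -0.46 against Blank. The solvent groups themselves differed in these markers. In Vehicle against Blank skin the median was -1.66, and 3 of 6 were called lower (Ivl, Flg and Lce1c). Those 3 calls ended with the muscle score in the model or without Vehicle replicates 3, 7 and 8, where 0 genes were called. With the muscle score in the model, 0 of the 6 basal keratinocyte, 0 of the 6 hair matrix, 3 of the 6 dermal papilla and 0 of the 3 differentiated keratinocyte calls against Vehicle were kept. Hair matrix log2 fold changes against Vehicle then ran from 0.15 for Tchh to 3.27 for Krt73 (edgeR adjusted p = 0.831 and 0.0540). Against Blank 5 of 5 hair matrix and 6 of 6 dermal papilla calls were kept with the score. The part of these cell types in the results of the enzyme genes was not tested beyond the covariate.

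Relatives of the 9 genes were read against the background of TDM versus Vehicle, in which 23.7% of all tested genes passed the test, 11.7% lower and 12% higher. In TDM versus Blank 16.2% passed, 4.63% lower and 11.6% higher. Over 8 lists of relatives and pathway genes, 130 of 144 listed genes were tested, and 48 passed (36.9%), 14 higher and 34 lower (26.2%), with a median log2 fold change of -0.09 against 0.01 over all tested genes. With that score in the model 8 of the 48 kept their call, namely Acot5, Agpat2, Rdh16, Acacb, Aadac, Aadacl3, Gm5538 and 9430007A20Rik, and calls of the genes named below other than these end with it. Some of those differences kept their size, at -1.04 for Rdh1 (-1.17 without the score), 0.52 for Cpt1a (0.55) and -0.42 for Echdc3 (-0.41), and others did not, such as 0.12 for Abhd12 (0.36). The lists were chosen with results of these data known.

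Of 9 tested arylacetamide deacetylase relatives, 3 fell against Vehicle and 1 rose. The founding gene Aadac, an esterase of the endoplasmic reticulum, fell from a median of 41.0 to 16.6 CPM (log2 fold change -1.08 ± 0.16, edgeR adjusted p = 0.000133). Aadacl3 fell by 1.62 ± 0.27 (adjusted p = 0.000364) and Gm5538, with the RefSeq symbol Aadacl2fm2, fell by 1.15 ± 0.24 (adjusted p = 0.00256) on the log2 scale. 9430007A20Rik, with the RefSeq symbol Aadacl4fm1, went the other way to Gm13178: it rose from a median of 5.05 CPM (1.32 to 6.80) to 18.2 CPM (6.62 to 40.5), a log2 fold change of 2.23 ± 0.34 (adjusted p = 0.000129). Against Blank the list had 4 lower and 1 higher.

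Of 12 tested acyl-CoA thioesterases besides Acot1 and Acot2, 4 fell (Acot5, Acot6, Acot9 and Acot13) and 2 rose (Acot7 and Them5), with a median log2 fold change of -0.14. Acot5, a peroxisomal enzyme of the same gene cluster, fell from a median of 3.35 to 0.917 CPM (log2 fold change -2.10 ± 0.34, edgeR adjusted p = 0.000277). Acot6 fell by 0.44 ± 0.13 (adjusted p = 0.0192), and Acot4 had a log2 fold change of -0.62 that did not pass (adjusted p = 0.0767) but was called in 8 alternatives, among them DESeq2, limma voom and the fit without Vehicle replicates 3, 7 and 8 (adjusted p = 0.0245). Acot8 had -0.14 (adjusted p = 0.236). The call of Them5 ended in 25 of the alternatives, also without Vehicle replicates 7 and 8 (adjusted p = 0.0703), and that of Acot13 in 10. Against Blank 2 of the 12 were called lower (Acot5 and Acot6) and 1 higher (Acot7). Acot9 and Acot13 stood at -0.06 and -0.07 there, and at 0.32 and 0.30 in Vehicle against Blank skin. Acot1 transcripts aligned to those of Acot5 with 85.18% identity and to those of Acot6 with 93.8% over 468 bases, so reads may be shared here too.

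**Figure D5:**
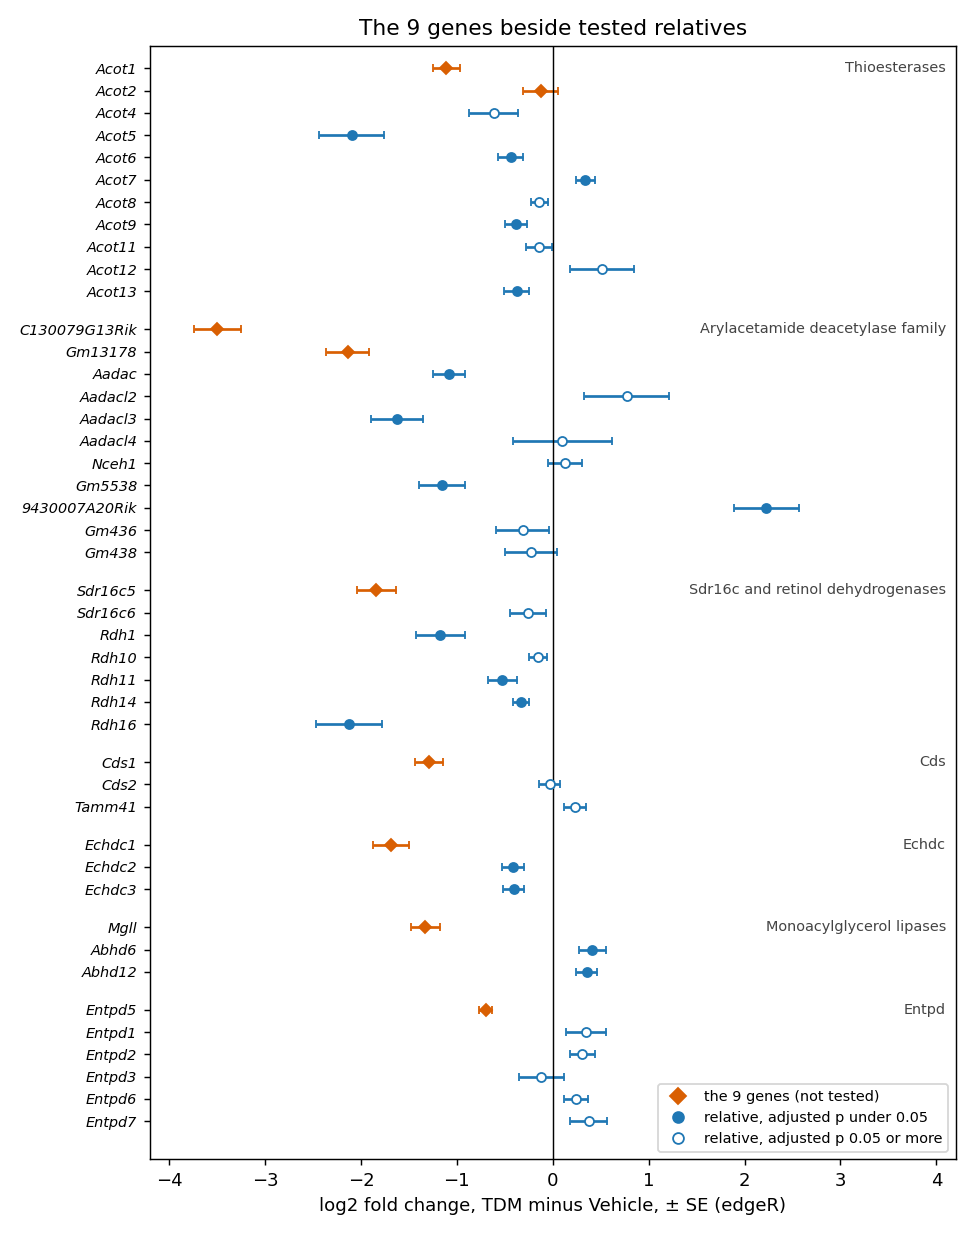
Log2 fold change in TDM minus Vehicle skin with standard errors for the 9 genes (diamonds, not tested) and relatives that were tested (circles, filled where the adjusted p is under 0.05). Acot5 at -2.10 and Rdh16 at -2.13 are lower, 9430007A20Rik at 2.23 is higher, and Sdr16c6 and Cds2 lie near 0 beside Sdr16c5 and Cds1.

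Of 17 tested short-chain dehydrogenases and retinoid-oxidising genes, 7 fell and none rose, with a median log2 fold change of -0.26. Rdh16, a retinol dehydrogenase gene, fell by 2.13 ± 0.34 on the log2 scale from a low level (median 1.62 to 0.549 CPM, edgeR adjusted p = 0.000269), and Rdh1 fell by 1.17 ± 0.25 (adjusted p = 0.00307). Sdr16c6, the closest relative of Sdr16c5, did not pass (log2 fold change -0.26 ± 0.19, adjusted p = 0.319) and ranged from 111 to 351 CPM in Vehicle and from 133 to 295 CPM in TDM skin. Without Vehicle replicates 3, 7 and 8 it was called lower, at -0.52 ± 0.17 (adjusted p = 0.0264). Within groups Sdr16c6 followed the mean of the 9 genes with r = 0.86. Whether the changes of Sdr16c5 and Sdr16c6 differ was not tested. Against Blank 5 of the 17 genes were called lower and 0 higher.

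No close relative of Cds1, Mgll or Entpd5 named here was called lower against Vehicle. Cds2, the other CDP-diacylglycerol synthase of the endoplasmic reticulum, had medians of 121 CPM in Vehicle and 113 CPM in TDM skin (log2 fold change -0.03 ± 0.11, edgeR adjusted p = 0.852), and Tamm41, which makes CDP-diacylglycerol in mitochondria, had 0.23 (adjusted p = 0.139, and 0.0324 without Vehicle replicates 3, 7 and 8). Against Blank Tamm41 was called higher, by 0.34 (edgeR adjusted p = 0.0424), and Cds2 was not called (adjusted p = 0.135). Of 21 tested genes of phosphatidic acid and glycerolipid synthesis 3 rose and 1 fell against Vehicle. They were led by Agpat2, an acyltransferase that makes phosphatidic acid, which rose by 1.03 ± 0.19 (adjusted p = 0.000886). Abhd6 and Abhd12, which also hydrolyse monoacylglycerols, rose by 0.41 ± 0.14 (adjusted p = 0.031) and 0.36 ± 0.11 (adjusted p = 0.0194) against Vehicle. The call of Abhd6 ended in 11 of the alternatives. Against Blank neither passed, and both were called lower in Vehicle than in Blank skin (adjusted p = 0.0373 for Abhd6 and 0.0377 for Abhd12). Without Vehicle replicates 3, 7 and 8 both genes lost their calls against TDM skin (adjusted p = 0.134 and 0.0692) and against Blank skin (0.173 and 0.162), the latter also with the muscle score (adjusted p = 0.113 and 0.112) or without replicates 7 and 8 alone (0.0588 and 0.0538). In the list of neutral lipid and endocannabinoid genes 4 of 18 rose and 2 fell. Lipg, the endothelial lipase gene, had the smallest p there and rose by 1.42 ± 0.28 (adjusted p = 0.00168). Against Blank 1 of the 18 was called higher, namely Lipg, and 0 lower. Of 16 tested nucleotidase and glycoprotein folding genes 3 rose (Cmpk1, Ganab and Prkcsh) and 1 fell (Slc35d1), with Entpd1 and Entpd6 at 0.35 (adjusted p = 0.222) and 0.24 (adjusted p = 0.165). Against Blank 5 of the 16 were called higher, among them Entpd6, and 1 lower.

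Echdc2 and Echdc3, relatives of Echdc1, fell by 0.42 ± 0.11 (edgeR adjusted p = 0.0112) and 0.41 ± 0.11 (adjusted p = 0.00974) against Vehicle on the log2 scale, less than the 1.69 described for Echdc1. Of 27 tested acyl-CoA and beta-oxidation genes 14 fell and 1 rose, with a median log2 fold change of -0.25. Acacb, which makes the malonyl-CoA that restrains fatty acid import into mitochondria, fell by 1.11 ± 0.15 (adjusted p = 2.75e-05), and Cpt1a, the importer it restrains, rose by 0.55 ± 0.11 (adjusted p = 0.00209). Against Blank 7 of the 27 were called lower, among them Echdc3 and Acacb, and 0 higher. Echdc2 and Cpt1a were not called there.

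The authors' deposited table gives log2 fold changes of its own for TDM against Vehicle. There C130079G13Rik has -3.51, Gm13178 -2.15, Sdr16c5 -1.85, Echdc1 -1.70, Mgll -1.34, Cds1 -1.30, Acot1 -1.12, Entpd5 -0.71 and Acot2 -0.14. The order of the 9 genes by that column is the order found here.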

How the data were processed

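Sequencing libraries came from an Illumina TruSeq kit, per the labels' protocols, and Bowtie 0.12.2 and the mm9 build are named in the submitters' processing notes. The coordinates of all 9 genes equal those of GENCODE M21 on GRCm38, so GRCm38 is given. The counts per gene were deposited by the authors without normalization, per the file headers. The FPKM values were made by the authors and are used here for levels per length. The log2 fold changes of the authors' deposited table come from a tool not given in the sources used here.

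Groups were taken from the labels. Low counts were dropped by filterByExpr at a count of 10 and a total of 15, and 99.86% of reads stayed. After TMM scaling, all 27 libraries entered a single robust quasi-likelihood model (edgeR 4.0.16, R 4.3.3), with calls at a Benjamini-Hochberg adjusted p under 0.05 over 17232 genes. A standard error is the size of the log2 difference divided by the root of its F statistic. Intervals are the log2 difference plus and minus 2 standard errors. Alternatives were DESeq2 1.42.0, limma 3.58.1 (voom with quality weights, or log2 of FPKM plus 1 or 0.1), RLE factors, no filter, the 2 compared groups only, a replicate block, a muscle score covariate (mean log2 CPM of 10 muscle markers), and libraries left out. The edgeR fit was also run on simulated counts with known changes in TDM skin, and it did not recover all of them in TDM versus Vehicle.

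The members and gene lists were chosen with earlier results of these data known. Genes named are the 9, their close relatives whatever their result (Acot3 and Entpd4 did not pass the filter), the 10 genes most alike, and from each list some of the called genes with the smallest p. A list of liver targets of PPARalpha counts in the total over 8 lists and is not reported singly here. The genes sharing sequence with them were added after seeing the data. Replicates of a group differed by more than sampling noise (chi-square per degree of freedom at least 8.7 over 108 pairs). Promoters are RefSeq's, on GRCm38.p6.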

Additional observations from a re-analysis of the deposited data

How the results depend on the processing

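The log2 fold changes of the 9 genes kept their direction in TDM versus Blank in 342 of 342 alternative values and in TDM versus Vehicle in 341 of 342. The exception was Acot2 with the muscle score as a covariate (0.21 against -0.13). In Vehicle versus Blank 24 of 342 values changed sign: with limma voom -0.0074 for Cds1, 0.008 for Mgll and 0.0409 for Acot2. Without Vehicle replicates 7 and 8 the Mgll value was 0.0589, and without Vehicle replicates 3, 7 and 8 it was 0.1599, with 0.0052 for Acot2. Leaving out each library in turn gave -0.1041 to 0.1411 for C130079G13Rik and -0.1049 to 0.0576 for Mgll. None of the 9 genes was called in Vehicle versus Blank under any of these settings.

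Counts over all genes moved more. TDM versus Vehicle had 4090 calls, 6921 with limma voom and 234 with the muscle covariate, and TDM versus Blank had 2793 and 5268 with limma voom. List genes called numbered 48, and 8 with the muscle covariate. Vehicle versus Blank had 475 calls, 1437 with DESeq2, 2 without the filter, 84 without Vehicle replicates 7 and 8, and 0 with the muscle covariate or without Vehicle replicates 3, 7 and 8. Leaving out each library in turn gave 0 to 1289, and the count was 0 when the library left out was 4, 6 or 9 of Blank, or 1, 3, 6 or 8 of Vehicle. Where edgeR called 0, between 2835 and 4327 genes had an unadjusted p under 0.05. The cause was not tested.

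Whether replicate numbers pair the libraries was not settled. Deviations of same-numbered libraries correlated between -0.399 and 0.382, and over 0.1 in 11 of 27 pairs, but differently numbered libraries were not compared. With the replicate block 3946, 2621 and 598 genes were called in the 3 comparisons, and 0 of the 9 genes in Vehicle versus Blank. At the lowest, 69 reads of a gene in a library limit the precision for Gm13178, and intervals do not cover reads assigned to a near-identical gene.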
